A study of Mus musculus with 48 samples.

Results

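Imprinted genes are transcribed mainly from 1 of the 2 parental copies, and 42 of them, chosen by symbol from a list of known mouse imprinted genes, were followed here in single 2-cell mouse embryos. All 42 were found among the 55421 genes of the table. Of these, 19 are known from later tissues as maternally expressed, 22 as paternally expressed, and Gnas, the gene of the stimulatory G protein alpha subunit, belongs to neither class because the parental copy it uses depends on the transcript. The study sequenced 24 embryos labelled K49A and 24 labelled WT, each an individual C57BL6 embryo taken 26 to 28 hours after fertilization. By the series title, K49A is an exchange of 1 amino acid of protamine 1, a small basic protein that replaces histones on sperm DNA. Neither the carrier parent of K49A nor shared litters are given in the labels. The word "dot" in 3 K49A titles (replicates 22, 23 and 24) is left unexplained there. Embryos served as replicates, and since littermates may be among them, p-values describe only the scatter among individual embryos. The question put to the members was whether their transcript levels in K49A embryos differed from those in WT embryos, by the parental copy they are known to use.

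The parental copies of an imprinted gene carry identical or near-identical sequence but different chromatin. At most imprinted domains a control region is methylated in the egg, at a few (Dlk1-Meg3 and H19-Igf2 among the members) it is methylated in the sperm, and these marks survive the genome-wide loss of methylation after fertilization, guarded by the zinc finger protein ZFP57 and its cofactor TRIM28. A few genes, Sfmbt2 and Slc38a4 among the members, are instead silenced on the maternal copy by histone H3 lysine 27 trimethylation laid down in the oocyte. At the 2-cell stage the mouse embryo starts its own transcription while mRNA stored by the oocyte is still present, so the transcript of a gene named maternally or paternally expressed can also come from the oocyte. The counts do not separate the parental copies, and maternally or paternally expressed names the copy known to be used in later tissues, not one read from these embryos.

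Libraries with at least 100000 counts were used, 17 K49A and 12 WT. Their totals ran from 105627 to 4947276 counts in K49A (median 4034654) and from 421301 to 5309505 in WT (median 3787532.5). Libraries of 3 K49A embryos (replicates 3, 14 and 22) and 2 WT embryos (replicates 5 and 10) stood apart by having under 1000000 counts or under 12000 genes with a count; the other 14 K49A and 10 WT libraries are called deep, and values in them alone are given beside the results. All K49A embryos lay in plate rows 5 to 8 and all WT embryos in rows 1 to 4, so a row effect and a group effect cannot be told apart. Each library is a whole embryo, so fewer transcribing cells and less RNA per cell cannot be told apart either. Between 14 and 37 members had a count in a K49A embryo (median 31) and between 11 and 35 in a WT embryo (median 27).

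Only a few members were abundant. On the deposited TPM scale, which divides by transcript length and so allows genes to be compared, the median over the 29 embryos was highest for Phlda2 (141 TPM), which encodes a pleckstrin homology protein that restrains placental growth, and for Gnas (131 TPM). Next came Snrpn at 59.6 TPM, the gene of a spliceosomal Sm protein, Mest at 45.5 TPM, which encodes a hydrolase-fold protein, Tssc4 at 41.9 TPM, Mcts2 at 33.1 TPM, a retrogene copy of Mcts1, and the noncoding RNA Meg3 at 22.6 TPM. Ube3a, a ubiquitin ligase gene, stood at 18.9 TPM and Cdkn1c, the gene of the cyclin-dependent kinase inhibitor p57, at 14.1 TPM, while Usp29 and every member ranked after it had medians under 5 TPM. Both classes are among the abundant members, and 1 member, Mkrn3, had no count in any of the 29 embryos. At the number of embryos used, the approximate upper confidence bound on a detected count is 17.6% of K49A and 25% of WT embryos. Exact binomial intervals reach 19.5% and 26.5%. These bounds set no limit on the share that hold the transcript below detection.

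**Figure D1:**
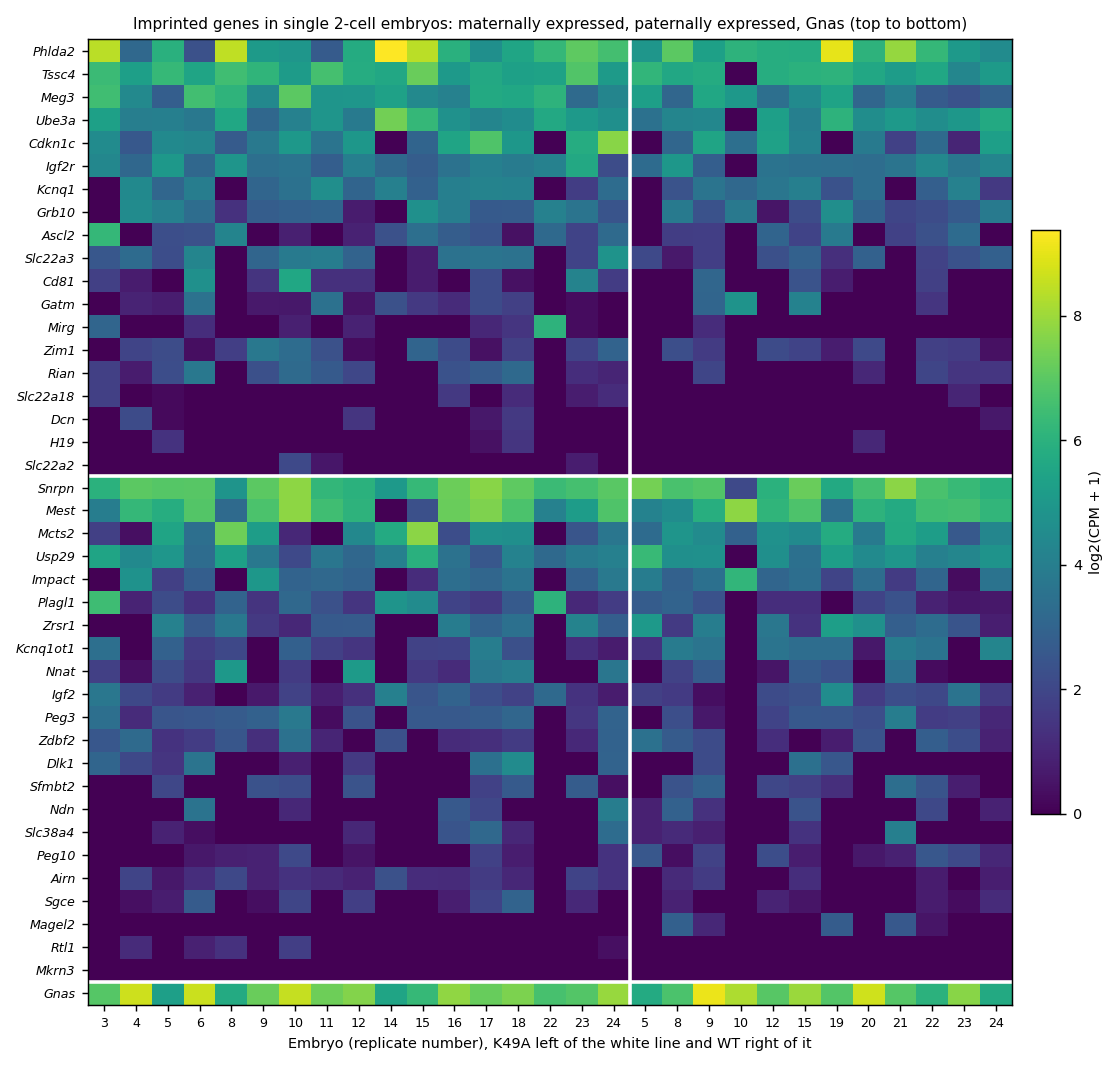
Heat map of log2(CPM + 1) for the 42 imprinted genes (rows, by class and mean level) in 17 K49A embryos (left) and 12 WT embryos (right). Phlda2, Tssc4, Snrpn, Mest and Gnas are bright in most embryos of both groups, while the lower rows of each class are at 0 in most embryos.

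RefSeq start sites were available for 34 of the 42 members, as 51 windows of 300 bases that run from 250 before to 50 after a start on GRCm38.p6. They were searched for the hexamer that ZFP57 reads when it is methylated, TGCCGC, on both strands (GCGGCA on the other). The hexamer occurred in 12 of the 51 windows (23.5%), against 3813 of all 32851 windows of the table (11.6%), and the median number of CpG pairs was 13 per member window, against 7 over all windows. A match describes these letters and is not a binding site. The windows of 4 members whose values are described below are shown, with capitals marking the hexamer. They lie at chr12:109540746-109541045 (plus strand) for Meg3, chr10:13090582-13090881 (plus strand) for Plagl1, chr6:30737800-30738099 (plus strand) for Mest and chr7:143296498-143296797 (minus strand) for Kcnq1ot1.
Meg3: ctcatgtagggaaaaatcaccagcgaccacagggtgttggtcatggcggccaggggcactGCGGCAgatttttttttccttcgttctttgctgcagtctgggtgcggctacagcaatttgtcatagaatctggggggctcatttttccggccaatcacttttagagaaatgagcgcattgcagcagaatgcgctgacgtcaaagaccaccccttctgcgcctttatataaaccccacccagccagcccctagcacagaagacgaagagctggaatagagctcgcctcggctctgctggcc
Plagl1: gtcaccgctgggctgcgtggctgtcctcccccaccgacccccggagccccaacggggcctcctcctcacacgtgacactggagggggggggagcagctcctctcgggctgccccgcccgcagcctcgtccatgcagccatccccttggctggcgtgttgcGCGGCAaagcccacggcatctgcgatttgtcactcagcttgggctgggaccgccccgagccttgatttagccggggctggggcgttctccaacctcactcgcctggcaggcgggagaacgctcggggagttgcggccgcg
Mest: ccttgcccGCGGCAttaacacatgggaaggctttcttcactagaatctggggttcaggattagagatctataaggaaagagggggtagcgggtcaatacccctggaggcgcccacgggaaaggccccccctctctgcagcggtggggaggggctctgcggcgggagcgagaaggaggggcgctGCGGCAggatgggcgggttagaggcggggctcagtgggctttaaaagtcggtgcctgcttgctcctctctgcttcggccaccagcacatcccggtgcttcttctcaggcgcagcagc
Kcnq1ot1: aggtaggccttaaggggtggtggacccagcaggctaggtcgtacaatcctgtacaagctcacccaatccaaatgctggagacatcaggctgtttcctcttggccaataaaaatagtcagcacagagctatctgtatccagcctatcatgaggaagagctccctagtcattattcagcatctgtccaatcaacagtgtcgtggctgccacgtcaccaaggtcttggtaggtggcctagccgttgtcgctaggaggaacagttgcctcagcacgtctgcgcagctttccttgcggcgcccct
Meg3 and Plagl1 each held 1 hexamer and Mest 2, whereas the Kcnq1ot1 window held 0, with 9 CpG pairs. A Zdbf2 window that is not shown held 3 hexamers. Sequence outside the windows was not searched, and no result below rests on them.

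No member was called between K49A and WT embryos by the test over all genes, and 18 of the 42 had too few counts to be tested. Of the 24 members with enough counts for the fit, 0 had an adjusted p under 0.05 (edgeR quasi-likelihood test, Benjamini-Hochberg adjustment over 12456 genes), and the same test called 2 of all genes (0.0161%, all lower in K49A). At an unadjusted p under 0.05 there were 3 members, against 963 genes in all (7.73%). All 3 were higher in K49A (Plagl1, Slc22a3 and Meg3), the direction of 6.25% of all genes, and 0 were lower, against 1.49%. DESeq2, run as an alternative, called 1 member, Plagl1, among 74 genes higher and 11 lower in K49A.

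By class, the estimates were more one-sided among the maternally expressed members. All 11 of them in the fit had a log2 fold change above 0 (median 0.52, range 0.27 to 1.43). Of all genes tested, 58.4% were above 0 and their median was 0.11. All 11 were above 0 with both other scalings tried as well. With limma voom 6 of 11 were above 0, against 54.9% of all genes, whose median there was 0.06. Among the 12 paternally expressed members in the fit, 6 were above 0 and 6 below (median -0.22, range -1.26 to 2.36). With the deep libraries alone, 9 of 12 maternally expressed members were above 0 (median 0.48) and 8 of 13 paternally expressed ones (median 0.19). Of all genes tested there, 55.7% were above 0, with a median of 0.07. Rian, maternally expressed, and Nnat, paternally expressed, were in that fit but not in the one with all libraries. No member of either class passed the test, no test was made of the class as a whole, and 7 of the 19 maternally expressed members lie in a single domain, so they are not independent of each other.

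Plain means, which need no fit, gave similar counts. Mean CPM (counts per 1000000 after TMM scaling) was higher in K49A for 18 of the 19 maternally expressed members, all but Gatm, the gene of an enzyme of creatine synthesis, and for 11 of the 22 paternally expressed ones; over all genes with a count the share was 60.4%. In the deep libraries it was higher in K49A for 15 of 19 and 13 of 22, against 58.0% of all genes. The summed CPM of the maternally expressed members was 154 to 949 in K49A embryos (median 320) and 137 to 750 in WT embryos (median 219), and that of the paternally expressed members was 151 to 511 (median 303) in K49A and 216 to 432 (median 265) in WT. Both sums overlapped widely. The mean log2(CPM + 1) over the maternally expressed members in the fit was 3.78 ± 0.34 in K49A embryos (SD, n = 17) and 3.25 ± 0.60 in WT embryos (SD, n = 12), and over the paternally expressed members 2.93 ± 0.47 and 3.12 ± 0.57. The lowest embryo of each group was the same for both classes, K49A replicate 22 and WT replicate 10, both outside the deep set. Without the shallower libraries the differences were 0.36 and -0.21 on that scale.

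**Figure D2:**
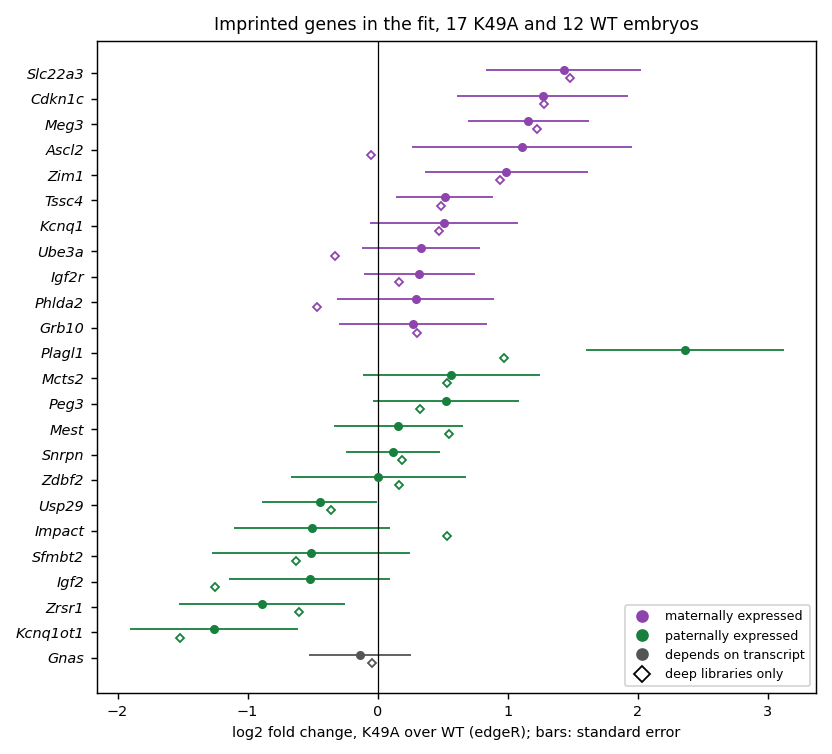
Log2 fold change, K49A over WT, of the 24 members in the fit, with standard errors; filled circles are all 29 embryos and open diamonds the 24 deep libraries. The 11 maternally expressed genes (purple) lie right of 0 with all embryos, whereas Ube3a, Phlda2 and Ascl2 lie left of 0 in the deep libraries; the paternally expressed genes (green) spread from Kcnq1ot1 at -1.26 to Plagl1 at 2.36.

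Meg3, a noncoding RNA of the Dlk1-Meg3 domain (chr12:109541001-109571726), was the member with the smallest p among those maternally expressed. It had a count in every embryo, with 5.91, 29.5 and 129 CPM as the lowest, median and highest of K49A embryos, against 4.13, 12.5 and 47.2 CPM in WT embryos. Of the 17 K49A embryos, 15 were above the WT median and 6 above the highest WT embryo, so the groups overlapped but the upper range was all K49A. Meg3 had a mean of 43.9 ± 34.4 CPM in K49A and 19.6 ± 15.8 CPM in WT (SD), and a log2 fold change of 1.16 ± 0.46 (SE; edgeR adjusted p = 0.474), which was 1.22 in the deep libraries.

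The other noncoding RNAs of this domain, which host small nucleolar RNAs and microRNAs, were too scarce for the fit. Rian had a count in 13 of 17 K49A embryos and 5 of 12 WT embryos, with a median of 2.97 CPM in K49A and 0 in WT, and 9 K49A embryos were above the highest WT embryo (2.86 CPM). Mirg had a count in 8 K49A embryos and 1 WT embryo. Its single high value, 66.0 CPM, was 8 counts in K49A replicate 22, a dot embryo whose library held 105627 counts. That library also had the highest sum of blood cell markers, described below. Elsewhere Mirg was at 7.29 CPM or less. The protein-coding genes of the domain, paternally expressed in later tissues, had counts in more K49A embryos as well. Dlk1, which encodes a Notch-like transmembrane protein, had a count in 9 K49A and 3 WT embryos. Rtl1, a retrotransposon-derived gene known from placental vessels, had one in 5 K49A and 0 WT embryos. For 0 of 12 the approximate upper confidence bound on a detected count is 25% of embryos.

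Taken per embryo, at least 3 of the 5 genes of the Dlk1-Meg3 domain had a count in 10 of 17 K49A embryos and in 1 of 12 WT embryos. In the deep libraries these numbers were 9 of 14 and 1 of 10. The domain's summed level was 10.1 to 141 CPM in K49A embryos (median 35.2) and 5.84 to 54.7 CPM in WT embryos (median 12.5). These counts were singled out after their values were seen and carry no test. In the other domain methylated in sperm, H19-Igf2, the noncoding RNA H19 had a count in 3 K49A embryos and 1 WT embryo, and the growth factor gene Igf2 had a median of 2.62 CPM in K49A and 2.74 CPM in WT, with a log2 fold change of -0.52 ± 0.62 (SE; edgeR adjusted p = 0.932).

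**Figure D3:**
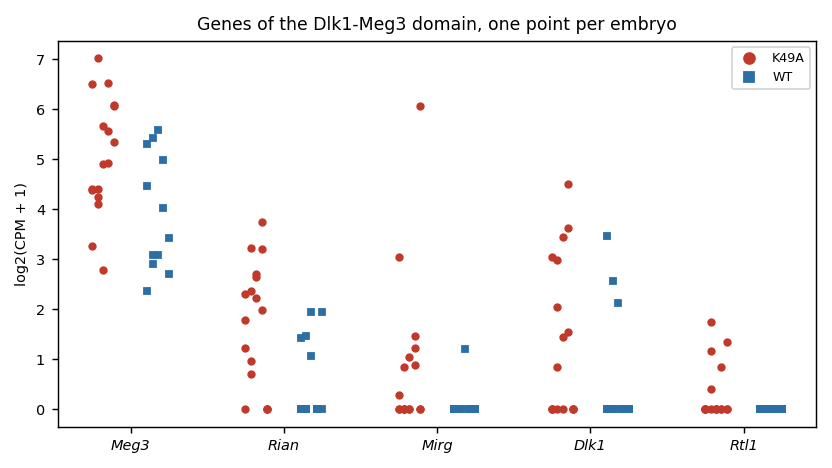
Log2(CPM + 1) of the 5 genes of the Dlk1-Meg3 domain, 1 point per embryo (K49A circles, WT squares). Meg3 is present in every embryo with its highest values in K49A; Rian, Mirg, Dlk1 and Rtl1 are above 0 in 13, 8, 9 and 5 of 17 K49A embryos and in 5, 1, 3 and 0 of 12 WT embryos.

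In the Igf2r domain, whose control region is methylated in the egg, the organic cation transporter gene Slc22a3 (chr17:12418960-12507704) had the largest estimate of the 11 maternally expressed members in the fit with all libraries. Its lowest, median and highest values were 0, 7.28 and 27.5 CPM in K49A embryos and 0, 2.92 and 6.48 CPM in WT embryos. Of the 17 K49A embryos, 10 exceeded the highest WT embryo and 3 had no count. The log2 fold change was 1.43 ± 0.60 (SE; edgeR adjusted p = 0.529) with all libraries and 1.48 with the deep ones, where Rian also entered the fit, at 1.92; with plate column as a factor Slc22a3 was at 0.94. Igf2r, which clears IGF2 from the cell surface, had nearly equal medians, with 3.48, 10.8 and 48.9 CPM in K49A, against 0, 10.5 and 29.9 CPM in WT (log2 fold change 0.32 ± 0.43, SE).

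Airn, the long noncoding RNA that silences this domain on the paternal copy in later tissues, was scarce. It had a count in 15 of 17 K49A embryos and 5 of 12 WT embryos, and in 14 of 14 and 5 of 10 of the deep libraries, with a median of 1.298 CPM in K49A and 0 in WT. Airn lies antisense to Igf2r over 28354 bases, and the sources used here do not give the strand setting of the counting, so reads from the overlap cannot be told apart. Slc22a2, another transporter gene of the domain, had a count in 3 K49A embryos and 0 WT embryos. At least 3 of the 4 domain members had a count in 13 of 17 K49A embryos and 5 of 12 WT embryos. The Snrpn domain went the other way, with at least 3 members counted in 5 of 17 K49A and 8 of 12 WT embryos. For the Kcnq1 domain the numbers were 17 of 17 and 12 of 12, and for the Peg3 domain 14 of 17 and 9 of 12. These tallies were read from the values and carry no test.

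**Figure D4:**
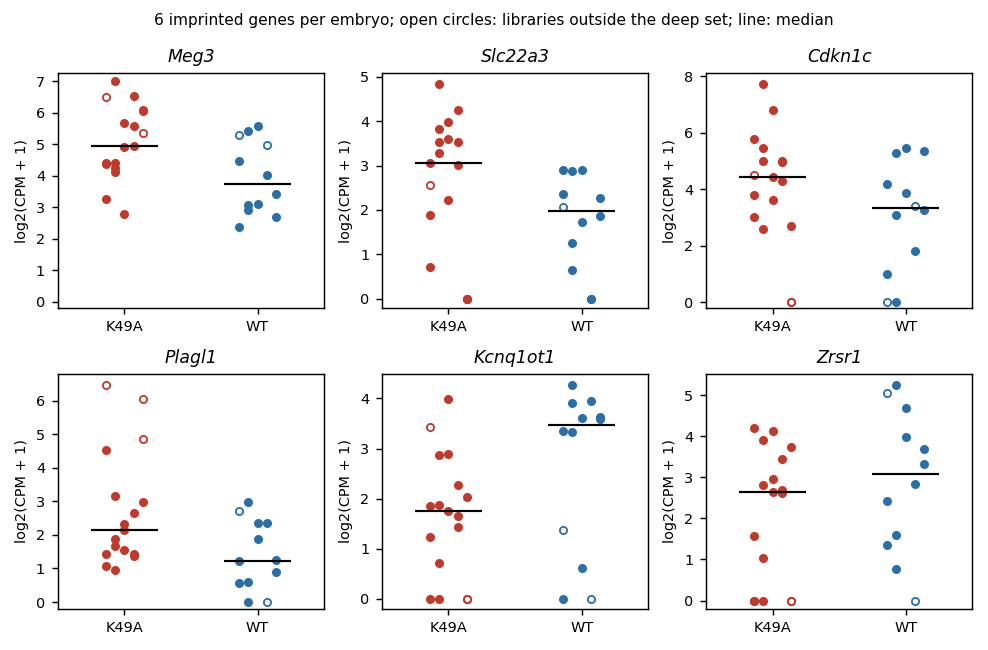
Log2(CPM + 1) per embryo of Meg3, Slc22a3, Cdkn1c, Plagl1, Kcnq1ot1 and Zrsr1, K49A left and WT right, with medians as lines and libraries outside the deep set as open circles. The 2 highest Plagl1 values are open circles (K49A replicates 3 and 22), 10 K49A embryos lie above every WT embryo for Slc22a3, and 16 of 17 K49A embryos lie below the WT median for Kcnq1ot1.

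The Kcnq1 domain on chromosome 7 holds 7 maternally expressed members and the noncoding RNA Kcnq1ot1, which in later tissues is transcribed from the paternal copy and silences the neighbouring genes on it. Kcnq1ot1 (chr7:143203458-143296549) had the lowest fold change of the 12 paternally expressed members in the fit. Its lowest, median and highest values were 0, 2.39 and 14.9 CPM in K49A embryos, against 0, 10.1 and 18.3 CPM in WT embryos. Only 1 of 17 K49A embryos was above the WT median, while 8 of 12 WT embryos were above the K49A median. The log2 fold change was -1.26 ± 0.65 (SE; edgeR adjusted p = 0.669) and -1.52 in the deep libraries. Kcnq1ot1 lies antisense to Kcnq1 over 93092 bases. With the strand setting of the counting unknown, reads from this overlap cannot be told apart either.

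Of the genes that Kcnq1ot1 silences in later tissues, Cdkn1c (chr7:143458339-143461050) had the largest estimate. It had 0, 20.7 and 209 CPM as the lowest, median and highest values in K49A, against 0, 9.12 and 43.3 CPM in WT. The value of 209 CPM belonged to K49A replicate 24, a dot embryo, and 12 of 17 K49A embryos were above the WT median. The log2 fold change was 1.27 ± 0.66 (SE, edgeR adjusted p = 0.674). It was 0.77 without K49A replicate 24 and 0.73 without the dot embryos.

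The remaining genes of the domain had smaller estimates or were scarce. Tssc4 had 32.4, 48.95 and 149 CPM in K49A and 0, 47.97 and 71.4 CPM in WT (log2 fold change 0.52 ± 0.37, SE), with 6 K49A embryos above the highest WT embryo. Kcnq1, a potassium channel subunit gene that overlaps Kcnq1ot1 in antisense over 93092 bases, had 0, 8.85 and 23.9 CPM in K49A and 0, 7.10 and 16.5 CPM in WT (0.51 ± 0.57). Phlda2 had almost equal medians, with 4.04, 60.9 and 663 CPM in K49A and 21.8, 60.9 and 521 CPM in WT, and its fold change of 0.29 ± 0.60 turned to -0.46 in the deep libraries, so no direction can be given. Ascl2, a trophoblast transcription factor gene, had a log2 fold change of 1.11 ± 0.85, against -0.05 in the deep libraries, with its highest value of 75.4 CPM in K49A replicate 3. Cd81, a tetraspanin gene, had a count in 12 K49A and 4 WT embryos and Slc22a18, a transporter gene, in 6 K49A embryos and 1 WT embryo.

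Maternally expressed members outside these domains had estimates below 1 on the log2 scale. Zim1, a zinc finger gene beside Peg3, had 0, 2.703 and 12.3 CPM in K49A and 0, 2.13 and 3.73 CPM in WT, with 5 K49A embryos above the highest WT embryo (log2 fold change 0.99 ± 0.63, SE; edgeR adjusted p = 0.800). Grb10, which encodes an adaptor that dampens insulin and IGF signalling, had 0, 6.57 and 25.3 CPM in K49A and 0, 4.75 and 23.8 CPM in WT (0.27 ± 0.57, and 0.093 without K49A replicate 15). Ube3a had 7.84, 24.7 and 167 CPM in K49A and 0, 23.2 and 66.5 CPM in WT, and its fold change of 0.33 ± 0.45 became -0.33 in the deep libraries. No direction can be given for Ube3a, and the Grb10 medians differ by less than the range within either group.

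Among paternally expressed members, Plagl1, the gene of a zinc finger transcription factor of growth control (chr10:13060504-13131694), had the largest fold change of the 24 members in the fit with all libraries. Its lowest, median and highest values were 0.93, 3.48 and 87.5 CPM in K49A embryos, against 0, 1.35 and 6.89 CPM in WT embryos. It had a count in all 17 K49A embryos, 15 of which were above the WT median and 6 above the highest WT embryo. The log2 fold change was 2.36 ± 0.76 (SE; edgeR adjusted p = 0.341), and the 2 highest values, 87.5 and 66.0 CPM, came from K49A replicates 3 and 22, which lie outside the deep set. In the deep libraries it was 0.97 ± 0.62, and without K49A replicate 3 it was 1.69. DESeq2 called it, with a log2 fold change of 2.703 and an adjusted p of 0.025. In each of these settings it was above 0, and its size depended on the libraries with few counts.

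Zrsr1, a retrogene related to the splicing factor U2AF35 (chr11:22972005-22976496), had an estimate below 0. It had 0, 5.26 and 17.3 CPM in K49A embryos and 0, 7.598 and 37.1 CPM in WT embryos, with 3 WT embryos above the highest K49A embryo (log2 fold change -0.89 ± 0.64, SE; edgeR adjusted p = 0.845). Usp29, a ubiquitin-specific protease gene of the Peg3 domain, had 3.15, 13.7 and 61.6 CPM in K49A and 0, 24.6 and 78.6 CPM in WT, with 4 of 17 K49A embryos above the WT median (-0.45 ± 0.44, and -0.17 without WT replicate 5). Zrsr1 lies antisense within Commd1 and resembles Zrsr2, so its count is uncertain. Peg3, the zinc finger gene that names the domain, had medians of 5.11 CPM in K49A and 2.58 CPM in WT (0.52 ± 0.56).

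Snrpn, Mest, Mcts2 and Impact had fold changes smaller than their standard errors. Snrpn had 27.9, 118 and 218 CPM in K49A and 3.22, 98.0 and 213 CPM in WT (log2 fold change 0.12 ± 0.36, SE). Mest had 0, 74.8 and 221 CPM in K49A and 9.80, 67.4 and 217 CPM in WT (0.16 ± 0.50). Mcts2 had 0, 11.7 and 215 CPM in K49A and 5.11, 21.6 and 53.9 CPM in WT (0.57 ± 0.68); its K49A median was below that of WT while its mean was above, and 2 K49A embryos exceeded every WT embryo. Without K49A replicate 15 the Mcts2 fold change was 0.021, and without K49A replicate 8 it was 0.22. Impact, a gene that restrains a kinase of the translational stress response, had 0, 6.79 and 30.2 CPM in K49A and 0.24, 8.21 and 70.9 CPM in WT (-0.50 ± 0.60, and 0.53 in the deep libraries). Counts of Mcts2 and Snrpn are uncertain because Mcts1 and Snrpb are near-identical relatives, and Snrpn shares its locus with Snurf. Zdbf2 was at 0.01 ± 0.67 and Sfmbt2, a Polycomb-group gene, at -0.51 ± 0.76. Gnas, in neither class, had 37.9, 149 and 409 CPM in K49A and 51.3, 120.5 and 549.5 CPM in WT (-0.13 ± 0.39).

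Scarce members could be compared only by the embryos in which they had a count. All 8 maternally expressed members outside the fit (Rian, Gatm, Cd81, Mirg, Slc22a18, Dcn, H19 and Slc22a2) had one in a larger share of K49A than of WT embryos. So did 61.6% of all genes outside the fit with a count in 3 to 26 of the 29 embryos. In the deep libraries alone all 8 did so as well, and no such share of genes outside the fit was computed there. Gatm had a count in 13 of 17 K49A and 4 of 12 WT embryos, although its highest value, 27.4 CPM, was in WT replicate 10. Dcn, the gene of the proteoglycan decorin, had one in 5 K49A embryos and 1 WT embryo. Over every member with a count in 3 to 26 embryos, the share was larger in K49A for 11 of 14 maternally expressed and 7 of 15 paternally expressed members, against 59.0% of all genes of that kind; in the deep libraries it was 8 of 9 and 7 of 12, against 58.9%.

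Of the 9 paternally expressed members outside the fit with a count in 3 to 26 embryos, 5 had one in a larger share of K49A embryos. The share over all such genes was 61.6%, and in the deep libraries 6 of 9 members did so. The others had a count in a smaller share of K49A embryos. Magel2, a MAGE-family gene of the Snrpn domain, had a count in 0 of 17 K49A embryos. The approximate upper confidence bound there is 17.6% of embryos. Magel2 had a count in 5 of 12 WT embryos, with 48 counts in these in all. All 5 of these WT libraries were deep, as were 14 of the K49A libraries at 0. Peg10, a retrotransposon-derived gene needed for the placenta, had a count in 8 of 17 K49A and 10 of 12 WT embryos, and 4 WT embryos were above the highest K49A embryo (3.15 CPM). Ndn, another MAGE-family gene, had one in 5 K49A and 6 WT embryos, and Slc38a4, an amino acid transporter gene, in 7 and 5. Sgce, the epsilon sarcoglycan gene that shares a promoter region with Peg10, had one in 10 K49A and 6 WT embryos, and Nnat, which lies within Blcap in antisense, in 12 and 7. The limits cover the sampling of embryos and not read depth, and these contrasts were read from the values and not tested.

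**Figure D5:**
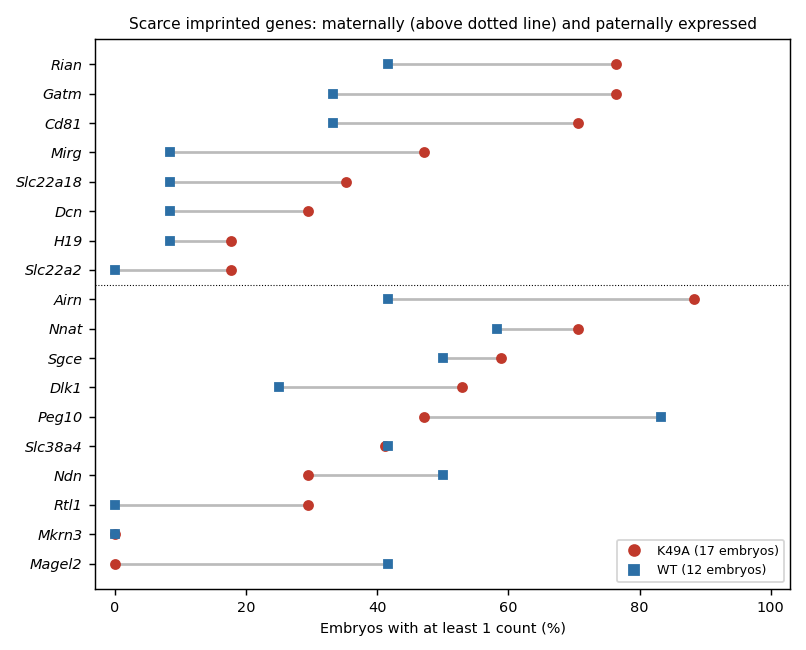
Share of embryos with at least 1 count for the 18 members outside the fit, K49A as circles and WT as squares. All 8 maternally expressed members have the circle to the right of the square; Airn has the widest gap in that direction among the paternally expressed members, and Magel2 and Peg10 the widest in the other.

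Further imprinted genes were read from the same fit. Of 22 further maternally expressed genes, 13 were in the fit, 0 were called, 8 were above 0 and the median log2 fold change was 0.18; Blcap at 0.88 and Cobl at 0.97 had unadjusted p-values under 0.05, and were at 0.91 and 0.36 in the deep libraries. Of 14 further paternally expressed genes, 13 were found by symbol, 5 were in the fit, 0 were called and the median was 0.03, with Inpp5f at 1.38 under an unadjusted p of 0.05 and at 0.64 in the deep libraries. Whether these medians differ from those of the members was not tested.

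Markers of other cell types and of the stage were summed in each embryo. The 10 blood cell markers summed to 7.76 to 734 CPM in K49A embryos (median 87.6, highest in replicate 22) and 13.5 to 54.5 CPM in WT embryos (median 22.5). All 4 in the fit were higher in K49A at an unadjusted p under 0.05, against 6.25% of all genes. Of the blood cell markers 0 were called, and Hbb-bs, Hbb-bt and Tyrobp were at 0 in both groups. The 14 cumulus and granulosa markers summed to 20.8 to 248 CPM in K49A (median 73.7) and 0 to 110 CPM in WT (median 46.5), with 0 of 3 in the fit called and Inha, Inhba and Hsd3b1 at 0 in WT. The 6 oviduct markers summed to 33.0 to 260 CPM in K49A (median 65.1) and 0 to 381 CPM in WT (median 92.6), with 0 of 1 called. The 8 markers of the 2-cell stage were counted in both groups, with sums of 24.7 to 1617 CPM in K49A (median 668) and 193 to 1464 CPM in WT (median 985). Of these, 0 were called and 3 were lower in K49A at an unadjusted p under 0.05, against 1.49% of all genes. Their median log2 fold change was -0.61, and 2 of the 8 were above 0. The 8 oocyte markers summed to 1283 to 12566 CPM in K49A (median 4914) and 2550 to 12234 CPM in WT (median 5256), with 0 called. The part of these markers in the levels of the imprinted genes was not tested.

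Plate columns 2 to 6 each held embryos of both groups, and differences in mean log2(CPM + 1) within a column were compared. A column held only 2 to 4 K49A and 2 to 3 WT embryos, with libraries outside the deep set included. Meg3 was higher in K49A in 5 of 5 columns (0.32 to 2.62) and so was Plagl1 (0.14 to 2.56). The largest Plagl1 differences were in columns 4 (2.56) and 3 (2.16), which held K49A replicates 22 and 3, both outside the deep set. Slc22a3 was higher in 4 of 5 columns (-1.78 to 1.72), whereas Kcnq1ot1 was lower in 4 of 5 (-2.43 to 1.78). Cdkn1c was higher in only 2 of 5 columns (-2.13 to 4.67), and Zrsr1 was lower in 4 of 5 (-2.21 to 0.66).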

How the data were processed

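Whole single embryos were sequenced with Smart-seq2. RSEM 1.3.3, STAR 2.7.8a, FastQC 0.11.8 and cutadapt 2.3 are named in the submitters' processing notes, as are the builds mm10 and GRCm38; the sources used here give no annotation release. The authors deposited expected counts (estimated counts per gene, all whole numbers) and TPM values; 5 transgene entries with 0 counts were left out.

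Libraries with at least 100000 counts entered the fit (19 of 48 did not). Genes passing filterByExpr (12456) were scaled by TMM and tested by edgeR 4.0.16 (quasi-likelihood, robust, R 4.3.3), Benjamini-Hochberg adjusted at 0.05; a standard error is the fold change over the square root of F. CPM follow TMM; the pseudocount in log2(CPM + 1) is 1. Deposited TPM values served only to compare levels between genes. The fit was also run on counts simulated for independent embryos with known fold changes, and no result here rests on that run. Alternatives used DESeq2 1.42.0, limma 3.58.1, other scalings, filters and depth minimums, plate column, a replicate block and each library left out. Positions come from GENCODE M21 on GRCm38, and plate rows and columns from the deposited well table.

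The members and lists were chosen with earlier results of these data known. Values per embryo are given for members in the fit among the 8 highest by mean CPM of their class or the 4 smallest p of their class.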

Additional observations from a re-analysis of the deposited data

How the results depend on the processing

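Members called numbered 0 in every alternative but 2: DESeq2 called 1 (Plagl1, log2 fold change 2.703, adjusted p = 0.025), and no low-count filter called 3 (Magel2, Rtl1 and Slc22a2, each with no count in 1 group). Leaving out each library gave 0 to 0. The maternally expressed median moved to 1.12 with no low-count filter (1.12 as well with Slc22a2 at its bound of 3 counts). It lay between 0.34 (limma voom, 6 of 11 above 0) and 0.83 (replicate block) in the other alternatives. On leaving out each library it ranged from 0.48 to 0.90. It exceeded 1.5 times its value of 0.52 without WT replicate 8, 12, 15, 19 or 23. Each of those fits held 12 maternally expressed members, against 11 in the main fit, so the set of genes changed as well. The paternally expressed median ran from -0.47 to 0.19. It was above 0 with limma voom (0.08), no filter (0.10), a minimum of 500000 counts (0.08) and the deep libraries (0.19). On leaving out each library it ranged from -0.33 (without WT replicate 15) to 0.12 (without WT replicate 22), also turning without WT replicates 5, 20 and 23. These 4 leave-outs, the minimum of 500000 counts and the deep libraries had 13 paternally expressed members in the fit, against 12 in the main fit. Whether the embryos or the change of members moved the medians was not tested.

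Directions turned as follows, and the cause was not tested. With limma voom: Igf2r -0.050, Phlda2 -0.78, Zim1 -0.017, Ube3a -0.39, Zrsr1 0.10, Impact 0.69, Mcts2 -1.11 and Gnas 0.16. With a minimum of 500000 counts: Phlda2 -0.12, Ube3a -0.19, Impact 0.34 and Gnas 0.040. With the deep libraries: Phlda2 -0.46, Ube3a -0.33 and Impact 0.53. With plate column as a factor: Mest -0.41 and Snrpn -0.030. On leaving out each library, Phlda2 ran from -0.10 to 0.88, Ube3a from -0.018 to 0.52, Mest from -0.0062 to 0.42, Snrpn from -0.0066 to 0.27, Impact from -0.71 to 0.21 and Gnas from -0.26 to 0.12. Meg3, Slc22a3, Cdkn1c, Grb10, Tssc4, Kcnq1ot1, Plagl1 and Usp29 kept their direction under every alternative in which they could be fitted; Plagl1 could not be fitted in 3 and Zim1 in 1. Sizes were less stable: over the alternatives and the libraries left out, Slc22a3 was lowest at 0.41 (replicate block, 1.17 in the same embryos without it), Cdkn1c at 0.73 (without the dot embryos), Grb10 at 0.093 and Tssc4 at 0.34 (limma voom), Plagl1 at 0.97 (deep libraries), and Usp29 was nearest 0 at -0.17. Meg3 and Kcnq1ot1 moved by less than 1.5 times in each.

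The replicate numbers do not pair the embryos: over 9 shared numbers the correlation of same-numbered deviations ran from -0.27 to 0.22 (2 over 0.1), and 1 of 18 embryos correlated best with its own number. With the replicate block, 0 members were called, the medians were 0.83 (maternally expressed) and -0.09 (paternally expressed), and Kcnq1 turned to -0.58 and Mest to -0.56; in the same embryos without the block Kcnq1 was -0.49 and Mest -0.14. Over all genes, edgeR with the block called 1 gene, DESeq2 called 74 higher and 11 lower, limma voom 26 and 14, and no filter 661 and 465. Depth limits the 18 members outside the fit, none of which had over 180 counts in a library.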

Other observations

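The 25 genes that set or guard imprints were all in the fit, and 0 were called; 8 were above 0 and the median log2 fold change was -0.14, against 0.11 over all genes. Zfp57, which binds methylated imprint control regions, averaged 435 CPM in K49A embryos and 410 CPM in WT embryos (log2 fold change 0.09 ± 0.53, SE). Its medians had the opposite order, 237 CPM in K49A and 358 CPM in WT. Its cofactor gene Trim28 averaged 91.7 CPM in K49A and 138 CPM in WT (-0.57 ± 0.52), and Eed, a subunit of the complex that writes histone H3 lysine 27 trimethylation, averaged 128 CPM in K49A and 192 CPM in WT (-0.57 ± 0.31). Dnmt3a, a de novo DNA methyltransferase gene, averaged 198 CPM in K49A and 108 CPM in WT and was the only 1 of the 25 with an unadjusted p under 0.05 (0.85 ± 0.38; edgeR adjusted p = 0.556); in the deep libraries its log2 fold change was 0.03.

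The 19 libraries under the depth minimum held few member reads. The 7 K49A libraries had 3 counts of members in 1836 counts in all, from 1 library, and the 12 WT libraries had 36 in 57024, from 2 libraries, 33 of them from 1.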
